A study of Homo sapiens with 4 samples.

Results

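The cadherin and catenin genes examined were CDH1, CDH2, CDH3, CDH4, CDH11, CDH13, CDH19, DCHS1, JUP and CTNNB1, taken as every probe set annotated with exactly 1 of these symbols. Of the 10 genes, 8 had such probe sets, 18 of 54675 on the array, and CDH4 and CDH13 were not analysed here. Of the 8, 6 were bright enough to be kept among 13134 of 19775 genes, which required that the highest of a gene's 4 values reach the median of all values, 0.38. CDH1 and CDH2 were not kept.

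Messenger RNA came from SCP2, a breast cancer line known as a bone-colonising subline of MDA-MB-231. The 4 groups were vector control cells without TGF-beta, vector control cells with TGF-beta, cells labelled as overexpressing DLC1 without TGF-beta, and those cells with TGF-beta. All share the SCP2 background. The dose and time of TGF-beta, the construct, and whether the overexpressing cells are a pool or 1 clone are not known here, since no label gives them. Each group is 1 array with no replicate, so each comparison sets 1 array against another, no test was possible, and the number of arrays limits the precision. A gene is said to have risen or fallen only at a difference of 2-fold or more, which is 1 on the log2 scale. Levels are intensities in arbitrary units, and each gene is represented by its brightest probe set unless another is named.

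Classical cadherins are transmembrane proteins whose outer domains bind cadherins of the neighbouring cell in a calcium-dependent way. Their inner tails bind beta-catenin or plakoglobin, which join them through alpha-catenin to actin, and free beta-catenin also acts in the nucleus as the effector of Wnt signalling. Carcinoma cells exposed to TGF-beta are known in many settings to exchange the epithelial E-cadherin for mesenchymal cadherins, and MDA-MB-231 cells are known for lacking E-cadherin.

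Array medians were 0.38 to 0.39. In its brightest probe set, 210762_s_at, DLC1 itself was at 1.77 and 2.51 in untreated and treated vector cells and at 3.38 and 3.64 in DLC1-labelled cells, while 224822_at read 1.79 and 2.41 against 1.44 and 1.69. A dimmer probe set, 220512_at, read 0.26 and 0.41 against 0.18 and 0.19, and only the value of 0.41 reaches 0.38. Since 210762_s_at opposes 224822_at and 220512_at, the arrays are called labelled DLC1 throughout. All 7 measured markers of MDA-MB-231-type cells, among them VIM and CD44, reached 0.38 on every array. The epithelial markers EPCAM, at 5.76 to 7.45, and GATA3, at 3.0 to 4.59, did so too. So did ERBB2, at 1.82 to 2.29, and ESR1, at 0.39 to 0.46, while PGR and FOXA1 stayed at 0.12 or lower. No measured marker of leukocytes, endothelium or fibroblasts passed 2-fold in any of the 4 differences. Some of them reached 0.38 on every array, among them CD14 at 1.08 to 1.67, PECAM1 at 0.67 to 0.85 and PDGFRB at 0.48 to 0.69. Others, such as PTPRC, CDH5 and DCN, stayed under 0.38 on every array. In such RNA from whole cultures, fewer cells that express a gene and less RNA per cell cannot be told apart.

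**Figure D1:**
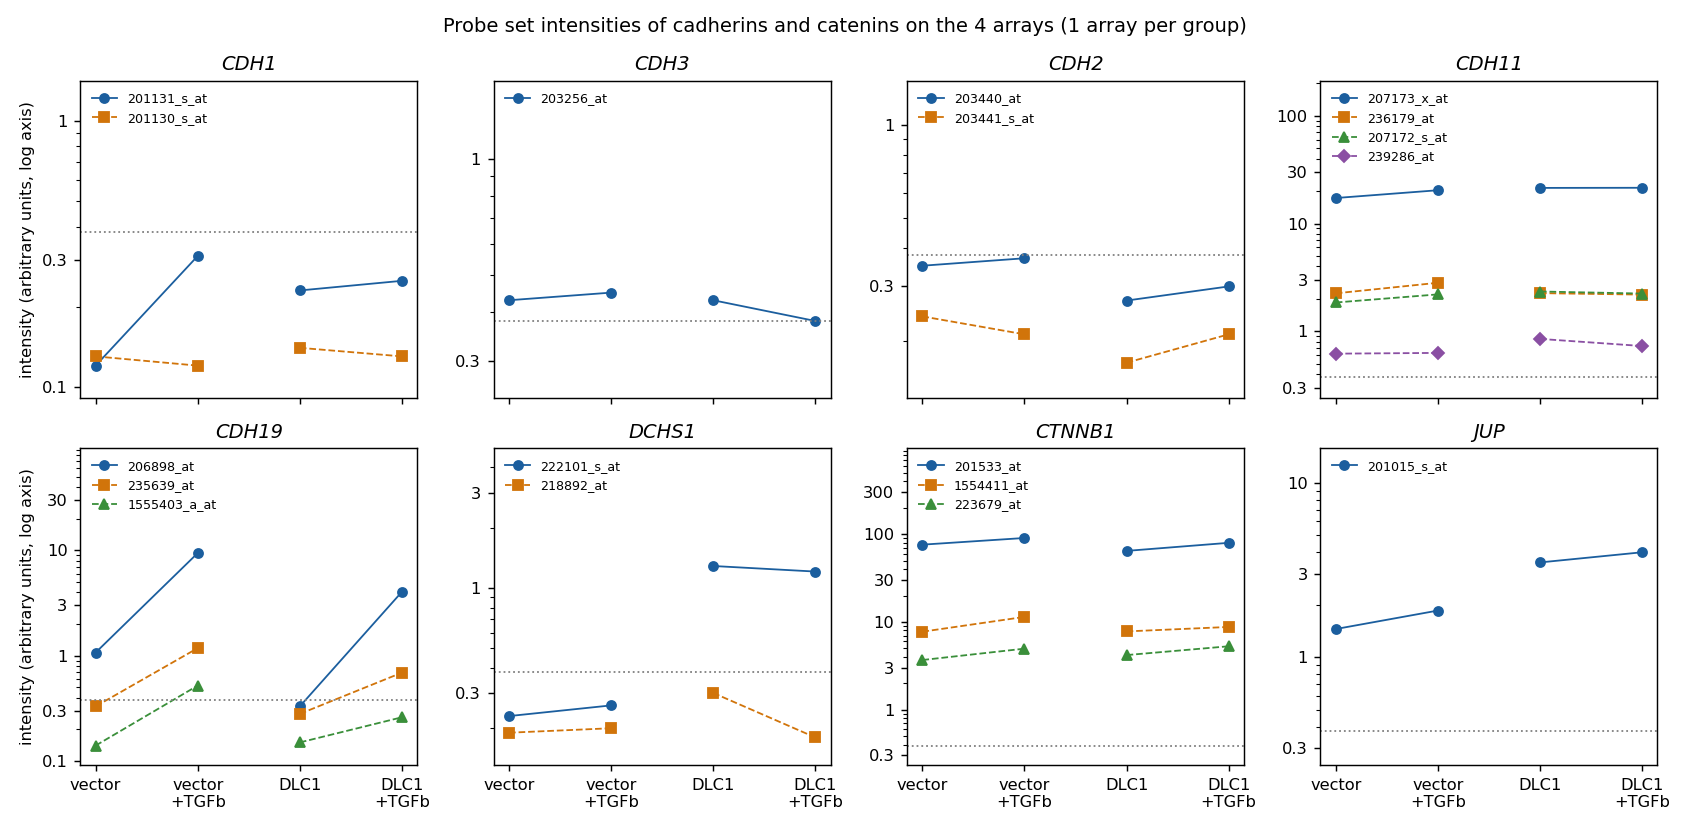
Intensity of every probe set of 8 cadherin and catenin genes (log axis, arbitrary units) on each of the 4 arrays, which are named on the horizontal axis. Lines join the arrays without and with TGF-beta of the same cells, solid for the brightest probe set, and the dotted line marks 0.38. CDH19 is higher with TGF-beta in both kinds of cells, DCHS1 (222101_s_at) and JUP are higher in both DLC1-labelled arrays, and no CDH1 or CDH2 value reaches the line.

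Among the type I classical cadherins, the pair known for the cadherin exchange was at most dimly measured. CDH1, the E-cadherin gene, read 0.12 in the vector array, 0.31 with TGF-beta, 0.23 in the DLC1-labelled array and 0.25 there with TGF-beta, in 201131_s_at. The untreated vector array was thus the low one, but every value lay under 0.38, so the size of the difference of 1.37 on the log2 scale is uncertain. The other CDH1 probe set, 201130_s_at, read 0.12 to 0.14 on all 4 arrays. CDH2, the N-cadherin gene of neural and mesenchymal cells, read 0.35, 0.37, 0.27 and 0.30 in the same order of arrays in 203440_at. Both vector arrays were slightly above both DLC1-labelled arrays, and with TGF-beta the differences were 0.08 and 0.15. In 203441_s_at CDH2 read 0.24, 0.21, 0.17 and 0.21. CDH3, the P-cadherin gene and the neighbour of CDH1 among the protein-coding genes of the RefSeq annotation, read 0.43, 0.45, 0.43 and 0.38, and differed by no more than 0.24 in either direction. These values show neither a rise of N-cadherin mRNA nor a fall of E-cadherin mRNA with TGF-beta past 2-fold, and for both genes the signal was too low for a smaller difference to be read. In untreated vector cells both CDH1 probe sets, at 0.12 and 0.13, already lay under 0.14, the 25th percentile of all values. A fall of CDH1 past 2-fold could therefore hardly have appeared, and these values cannot tell whether E-cadherin mRNA fell.

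Of the type II classical cadherins, CDH11 was steady. CDH11 encodes OB-cadherin, known from osteoblasts and mesenchymal cells. Its brightest probe set, 207173_x_at, read 17.25 in the vector array, 20.37 with TGF-beta, 21.41 in the DLC1-labelled array and 21.47 with TGF-beta. All 4 of its probe sets reached 0.38 on every array. Their differences with TGF-beta lay between 0.02 and 0.33 in the vector arrays and between -0.22 and 0.00 in the DLC1-labelled arrays. Their differences between DLC1-labelled arrays and vector lay between 0.01 and 0.46 untreated and between -0.36 and 0.21 treated. The untreated vector array was the lowest of the 4 for 207173_x_at, 207172_s_at and 239286_at, and for none of the probe sets did any pair of arrays differ by 2-fold.

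CDH19, a type II cadherin gene known from the precursors of Schwann cells, was the member that responded to TGF-beta. In 206898_at it read 1.07 in the vector array and 9.43 with TGF-beta, and 0.33 in the DLC1-labelled array and 4.04 with TGF-beta. Both treated arrays were above both untreated ones, and within each state the DLC1-labelled array was below the vector array. CDH19 rose 8.81-fold with TGF-beta in vector cells and 12.2-fold in the DLC1-labelled cells. The rounding of the deposited values to 2 decimals alone allows 8.77-fold to 8.86-fold and 12.0-fold to 12.4-fold. The value of 0.33 lies under the filter, so the second fold change and its lead over the first are uncertain.

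The other CDH19 probe sets rose less. In 235639_at CDH19 read 0.33 and 1.18 without and with TGF-beta in vector cells and 0.28 and 0.69 in DLC1-labelled cells, differences of 1.84 and 1.30 on the log2 scale. In 1555403_a_at CDH19 read 0.14 and 0.52, and 0.15 and 0.26, differences of 1.89 and 0.79. All 3 probe sets thus passed 2-fold in vector cells and 2 of 3 did in DLC1-labelled cells. However, 1555403_a_at reached the filter only in the treated vector array, where it is highest, so it adds little to the rise. The untreated values of 235639_at also lie under the filter, so the sizes of both are uncertain. The probe sets part in whether the response was larger or smaller with DLC1: the interaction, meaning how far the log2 response of DLC1-labelled cells exceeded that of vector cells, was 0.47 in 206898_at, -0.54 in 235639_at and -1.10 in 1555403_a_at.

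CDH19 also fell in the DLC1-labelled arrays compared with vector arrays, by 1.70 in the untreated state and by 1.22 in the treated state in 206898_at, that is 3.24-fold and 2.33-fold lower. With TGF-beta, where the signal was highest, 235639_at gave -0.77 and 1555403_a_at -1.0, so all 3 probe sets were lower in the DLC1-labelled array. Without TGF-beta, 235639_at gave -0.24 and 1555403_a_at 0.10, from values that were all under 0.38. With the mean of the 3 probe sets the differences were -0.61 and -0.999, and neither passed 2-fold. Of 6 markers of the Schwann cell and melanocyte lineage, 4 were measured. Their summed level was 9.54 and 6.75 without and with TGF-beta in vector cells and 11.81 and 8.49 in DLC1-labelled cells. It was carried by MITF, a regulator of pigment cells, at 3.99 to 9.44. MITF gave -0.81 and -0.76 with TGF-beta and 0.43 and 0.49 by DLC1 label, in each comparison the opposite sign to CDH19 in 206898_at. SOX10, the defining transcription factor of that lineage, read 0.58 to 0.71, with differences with TGF-beta of 0.21 and 0.02. ERBB3, the neuregulin receptor gene of that lineage and of epithelial cells, read 1.51 to 2.03, with differences with TGF-beta of 0.13 and 0.43, and S100B stayed at 0.20 or lower. The gap between the 3' and 5' control probe sets of beta-actin is a sign of RNA quality. On the log2 scale it was 2.83 to 3.26 over the 4 arrays, and it moved by -0.43 with TGF-beta in vector cells and by -0.08 in DLC1-labelled cells. The same gap for GAPDH was 0.35 to 0.39 and moved by -0.02 and 0.04. The part of RNA quality in the CDH19 result was not tested.

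The sequence before the start of CDH19 is shown because this gene carries the TGF-beta response of the family. It comes from RefSeq (GRCh38.p14, chr18:66604091-66604340, minus strand) and holds the 250 bases before the annotated start, 5′ to 3′, with matches to CAGAC or its reverse complement GTCTG in capitals. CAGAC contains the shorter SMAD-binding box, GTCT or AGAC.
CDH19: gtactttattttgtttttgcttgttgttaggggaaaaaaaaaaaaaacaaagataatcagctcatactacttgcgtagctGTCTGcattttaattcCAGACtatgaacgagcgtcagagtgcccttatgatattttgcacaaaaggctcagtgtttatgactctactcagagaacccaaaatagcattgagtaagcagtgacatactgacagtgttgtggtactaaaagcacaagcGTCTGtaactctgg
The 3 matches begin 170, 154 and 14 bases before the start. CAGAC on either strand occurs in 38.0% of the 35116 windows of this length in the RefSeq table, and the shorter GTCT in 77.5%. The AP-1 motif TGANTCA, found in 6.57% of windows, and the palindrome GTCTAGAC, found in 0.182%, have no match here. Of the 10 genes, 5 had entries in the table, namely CDH2, CDH4, CDH19, JUP and CTNNB1. CTNNB1, which did not pass 2-fold with TGF-beta, has 2 matches to CAGAC in its window, and the windows of the 2 starts of CDH2 have 2 and 1. A match describes the letters of the window only.

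DCHS1, a large cadherin outside the classical group, is the ligand of FAT4 in a pathway known for planar cell polarity. In 222101_s_at it read 0.23 in the vector array and 0.26 with TGF-beta, against 1.29 in the DLC1-labelled array and 1.21 with TGF-beta. The arrays separated by their DLC1 label, and TGF-beta moved DCHS1 by 0.18 and -0.09 only. DCHS1 rose in the DLC1-labelled arrays by 2.49 untreated and by 2.22 treated. The sizes are uncertain, since neither vector value reaches the filter. Over the 5 alternative settings the differences ran from 1.57 to 2.56 and from 1.03 to 2.31. The second probe set, 218892_at, read 0.19, 0.20, 0.30 and 0.18, under the filter on all arrays, with differences of 0.66 and -0.15, so the rise rests on 1 probe set.

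JUP encodes plakoglobin, the catenin shared by adherens junctions and desmosomes. Measured by 201015_s_at alone, it read 1.45 in untreated vector cells, 1.85 with TGF-beta, 3.49 in the DLC1-labelled array and 3.99 with TGF-beta. Both DLC1-labelled arrays were above both vector arrays, and every value was above the filter. JUP rose in the DLC1-labelled arrays by 1.27 untreated and by 1.11 treated, 2.41-fold and 2.16-fold. With TGF-beta it gave 0.35 and 0.19. Over the settings its differences ran from 1.21 to 1.34 untreated and from 1.07 to 1.20 treated. The mean of probe sets could not move them, since JUP was measured by 1 probe set. On the same arrays, the 18S ribosomal control probes read 0.43 to 0.85 higher by DLC1 label in untreated cells and 0.07 to 0.35 higher in treated ones, and their part in the JUP and DCHS1 results was not tested.

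Annotated starts of JUP number 2 in the RefSeq table. The window of the second one is shown because it holds matches to the general E-box, CANNTG. Its form CACCTG is known from the SNAI and ZEB repressors of junction genes. The window is chr17:41785977-41786226 (GRCh38.p14, minus strand), 250 bases before that start, 5′ to 3′, with CANNTG in capitals.
JUP, second start: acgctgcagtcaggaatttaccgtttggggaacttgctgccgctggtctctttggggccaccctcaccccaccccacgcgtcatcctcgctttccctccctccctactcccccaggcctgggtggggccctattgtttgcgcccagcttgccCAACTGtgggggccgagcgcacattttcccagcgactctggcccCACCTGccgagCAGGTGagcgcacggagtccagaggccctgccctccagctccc
CAACTG begins 98, CACCTG 54 and CAGGTG 43 bases before the start. The first start has none in its window. CANNTG occurs in 61.8% of the 35116 windows, and CACCTG with its reverse complement CAGGTG, the form known from those repressors and a part of the CANNTG matches, in 17.5%. No deposited value tells which start the JUP probe set reads. The matches describe the letters of the window only, and their part in the JUP result was not tested.

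CTNNB1 encodes beta-catenin. Its brightest probe set, 201533_at, read 76.12 in the vector array, 90.69 with TGF-beta, 64.62 in the DLC1-labelled array and 79.87 with TGF-beta. Each treated array was above the untreated array of its kind, by 0.25 and 0.31. In 1554411_at CTNNB1 gave 0.56 and 0.17 with TGF-beta, and in 223679_at 0.43 and 0.33, so the 3 probe sets share the upward sign in both kinds of cells, all short of 2-fold. Between DLC1-labelled arrays and vector the 3 probe sets went both ways, from -0.24 to 0.19 in untreated cells and from -0.38 to 0.09 in treated ones. None of them passed 2-fold by DLC1 label, as its relative JUP did.

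**Figure D2:**
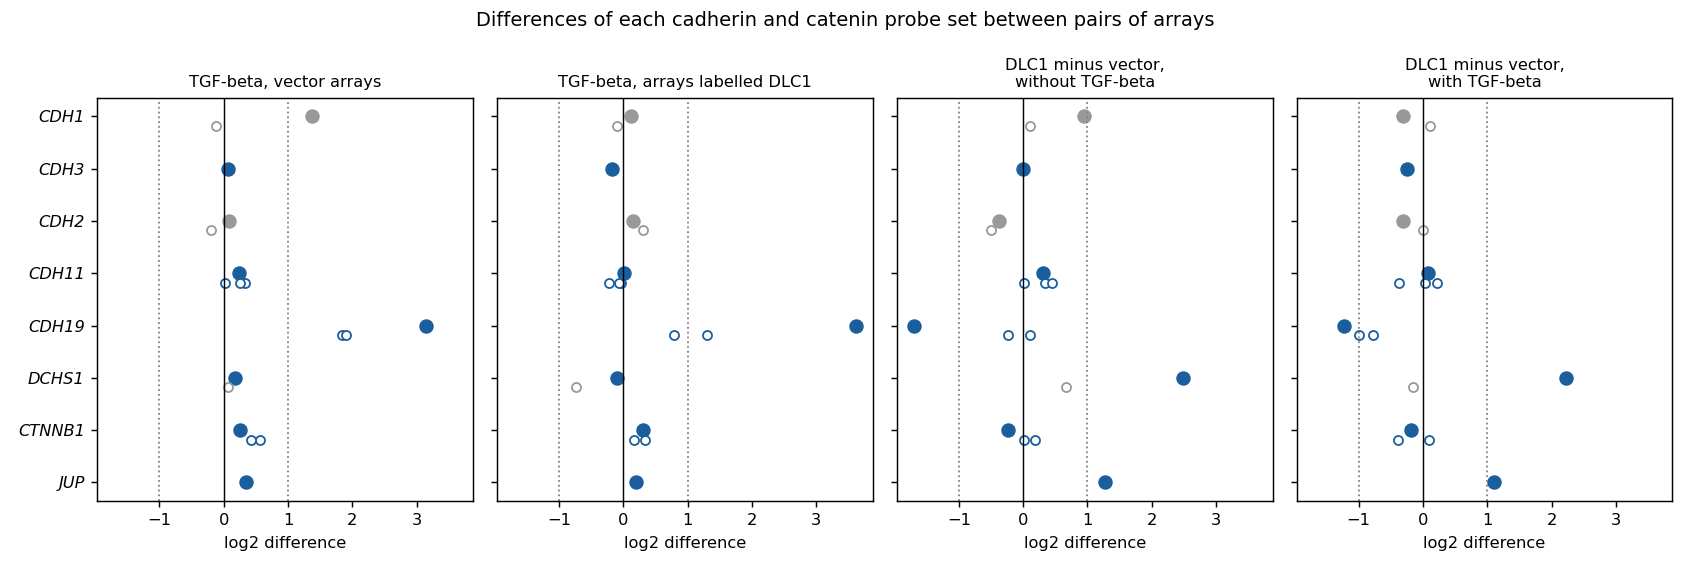
Log2 difference (horizontal axis) of each probe set of 8 cadherin and catenin genes (vertical axis) in 4 comparisons of 1 array against 1 array. Filled points are the brightest probe set and open points the others, grey where all 4 values lie under 0.38, and dotted lines mark 2-fold. Only CDH19 among the kept genes passes 2-fold with TGF-beta, while the filled points of DCHS1 and JUP lie to the right and that of CDH19 to the left in both comparisons by DLC1 label, and the open points of DCHS1 and CDH19 do not all follow them.

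Counted over the 6 kept genes, 1 rose with TGF-beta in vector cells and 0 fell, beside 1.2% and 0.685% of all 13134 kept genes. The median of the 6 was 0.25, against -0.03 over all kept genes. All 6 lay above 0, but CDH3 by 0.07 only and DCHS1 from values under the filter. The share of all kept genes above 0 was not counted. In DLC1-labelled cells, 1 rose and 0 fell, beside 0.777% and 0.107%, with a median of 0.10 against -0.01, and 4 lay above 0 and 2 below. CDH19 was the gene that rose in both, where 0.609% of kept genes rose in both. In the comparison of DLC1-labelled arrays with vector arrays, 2 of 6 rose and 1 fell without TGF-beta, beside 1.61% and 2.31% of all kept genes, with a median of 0.16 against -0.03. With TGF-beta again 2 rose and 1 fell, beside 1.45% and 1.61%, with a median of -0.05 against -0.02. With each array centred on housekeeping genes, the shares of all kept genes with TGF-beta became 1.96% and 1.22%, and the counts of the 6 were 2 and 1 still. With the mean of each gene's probe sets, 2 of the 6 rose and 0 fell by DLC1 label in both states, so the fall of CDH19 was lost. DCHS1 and JUP rose in both states, beside 0.853% of kept genes, and CDH19 fell in both, beside 1.1%. By its brightest probe set, no kept member passed 2-fold in the interaction, where 0.365% of kept genes did. The members were chosen with such results in view, so these counts are a description. The response to TGF-beta in vector cells and the difference by DLC1 label without TGF-beta share the untreated vector array.

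For the 3 members that passed 2-fold, the kept genes with the most similar profile were sought, as the smallest Euclidean distance between log2 values centred on their mean over the 4 arrays. For CDH19 these were ADAM19, a metalloprotease gene, at a distance of 0.55, AKAP12, a kinase anchor gene, at 0.56 and COL4A1, a collagen IV gene, at 0.81. ADAM19 read 0.51, 3.96, 0.15 and 1.18 in the order vector, vector with TGF-beta, labelled DLC1 and labelled DLC1 with TGF-beta. For DCHS1 the nearest were ALDH8A1 at 0.30, the complement gene C3 at 0.40 and the chaperone component gene SDF2L1 at 0.44. For JUP they were RHOQ, a small GTPase gene, at 0.09, CDK2AP2 at 0.10 and TCP11L2 at 0.12. RHOQ read 9.74, 11.71, 23.29 and 24.9. A likeness over 4 arrays describes these arrays and no more.

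**Figure D3:**
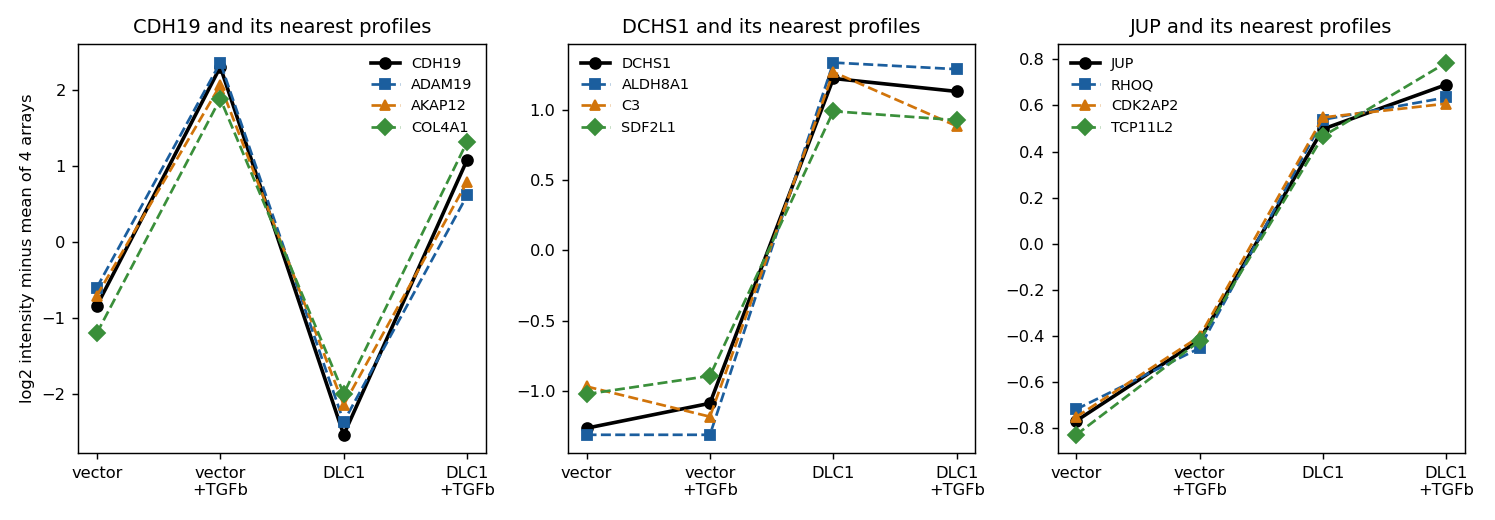
Log2 intensity minus the gene's mean over the 4 arrays (vertical axis) on each array (horizontal axis) for CDH19, DCHS1 and JUP (solid black) and the 3 kept genes with the nearest profile to each (dashed). Lines only guide the eye between arrays, and the JUP profile and that of RHOQ, at a distance of 0.09, nearly coincide.

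Other genes of cell adhesion were read from 8 lists of 100 genes in all, of which 65 were kept. Of all kept genes, between 0.107% and 2.31% passed 2-fold in 1 direction of a comparison. No list was tested against these shares, so the counts below are a description. The desmosome, which plakoglobin shares with adherens junctions, had 8 kept genes of 15. DSC2, a desmosomal cadherin gene, read 1.46, 3.46, 1.29 and 2.02 in the same order of arrays and rose by 1.24 with TGF-beta in vector cells, against 0.65 in DLC1-labelled cells. Its other probe set above the filter, 204751_x_at, gave 1.0 and 0.57. The plaque gene DSP gave 0.65 and 0.52 and the cadherin gene DSG2 0.45 and 0.44, while the plakophilin gene PKP2 gave -0.69 and -0.34. Between DLC1-labelled arrays and vector none of the 8 passed 2-fold, and their medians were -0.15 and -0.17.

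The partners of DCHS1 did not rise with it. FAT4, its receptor, read 3.37 in the vector array, 1.42 with TGF-beta, 1.85 in the DLC1-labelled array and 1.11 with TGF-beta. The untreated vector array was the high one, and FAT4 fell by 1.25 with TGF-beta in vector cells and gave -0.74 in DLC1-labelled cells. By DLC1 label it gave -0.87 and -0.36. FJX1, the Golgi kinase gene that acts on this pair, gave -0.45 and -0.57 by DLC1 label and -0.29 and -0.42 with TGF-beta. The related FAT3 fell by 1.16 in the untreated DLC1-labelled array and gave -0.61 in the treated one, and 236029_at gave -1.26 and -0.89. CELSR3, a planar polarity cadherin gene, rose by 1.03 untreated and gave 0.69 treated, and 205165_at gave 0.88 and 0.61. Of the 7 kept genes of 9 in this list, 1 rose and 1 fell by DLC1 label without TGF-beta, 0 passed 2-fold with it, and the medians were -0.26 and -0.36.

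Delta protocadherins, which are expressed mainly in the nervous system, had 5 kept genes of 10. PCDH7 rose by 1.60 and 1.58 by DLC1 label in 228640_at, but its other probe set above the filter, 205534_at, gave -0.15 and 0.38. PCDH9 fell by 1.39 by DLC1 label in treated cells and gave -0.58 in untreated ones. PCDH10 rose by 1.41 with TGF-beta in vector cells, from 0.23, under the filter, to 0.61, and gave 0.81 in DLC1-labelled cells. PCDH1 gave 0.39 and 0.65 with TGF-beta. Of the 16 other cadherin genes, all measured, only 6 were kept and none passed 2-fold. CDH18 gave -0.50 and -0.35 by DLC1 label, CDH22 -0.32 and -0.09, CDH24 -0.10 and -0.27, and CDH23 gave 0.47 with TGF-beta in DLC1-labelled cells. The other CDH22 probe set, 215181_at, gave 0.25 and 0.11 by DLC1 label. CDH5, the VE-cadherin gene of endothelium, stayed at 0.11 or lower.

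Among other catenins and junction partners 11 of 16 genes were kept, and none passed 2-fold in any of the 4 differences. VCL, the gene of the actin linker vinculin, read 32.46 and 33.85 in the vector arrays against 19.28 and 20.61 in the DLC1-labelled arrays, differences of -0.75 and -0.72. PLEKHA7 gave -0.96 with TGF-beta in vector cells and -0.32 in DLC1-labelled cells. NECTIN3, an immunoglobulin-type adhesion gene of adherens junctions, gave -0.72 and -0.10 by DLC1 label in 213325_at. Its other probe set, 227503_at, also above the filter, went the other way, at 0.50 and 0.69. CTNNAL1, a relative of alpha-catenin, gave -0.40 and -0.16 by DLC1 label. CTNNA1, the alpha-catenin gene, gave 0.25 and 0.18.

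Repressors of cadherin genes had 6 kept genes of 9. SNAI2, known as a repressor of CDH1, read 21.85 and 31.72 in the vector arrays and 9.57 and 15.61 in the DLC1-labelled arrays. It fell by 1.19 and 1.02 by DLC1 label, while with TGF-beta it gave 0.54 and 0.71. ZEB1 gave -0.46 and -0.19 by DLC1 label. ZEB2 gave -0.62 and -0.52 in 203603_s_at, from values of 0.44 to 0.72, near the filter. Its other probe set reaching the filter, 228333_at, gave 0.31 and 0.08. TCF4, which encodes the E-box protein E2-2, read 4.95 and 12.43 in the vector arrays and 2.89 and 4.04 in the DLC1-labelled arrays. It rose by 1.33 with TGF-beta in vector cells and gave 0.48 in DLC1-labelled cells. Without TGF-beta 1 of the 6 fell by DLC1 label, beside 2.31% of all kept genes, and with it 2 fell, beside 1.61%. The medians were -0.54 and -0.39, against -0.03 and -0.02 over all kept genes.

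The last 2 lists belong to the beta-catenin side of the family. Of the destruction complex and the transcriptional partners of beta-catenin, 13 of 15 genes were kept, and none passed 2-fold in any of the 4 differences. LEF1, a DNA-binding partner of beta-catenin, gave -0.76 and -0.65 by DLC1 label in 221558_s_at. Its other probe set reaching the filter, 221557_s_at, gave 0.03 and 0.09. TCF7L2 gave 0.27 and 0.37 with TGF-beta, APC -0.26 and -0.31 by DLC1 label, and BTRC -0.32 and -0.09. Of 10 beta-catenin target genes 9 were kept. LGR5 was the only one past 2-fold, at -1.51 with TGF-beta in vector cells and -1.0 by DLC1 label without TGF-beta, from 0.40 to 0.14 and 0.20, of which the lower values lie under the filter. AXIN2, a widely used readout of Wnt signalling, gave -0.05 and 0.17 with TGF-beta and -0.42 and -0.20 by DLC1 label. Its values, 0.48 to 0.64, lie near the filter. ZNRF3 gave -0.40 and -0.43 with TGF-beta and RNF43 0.44 and 0.46 by DLC1 label, the latter from values of 0.35 to 0.57, also near the filter.

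**Figure D4:**
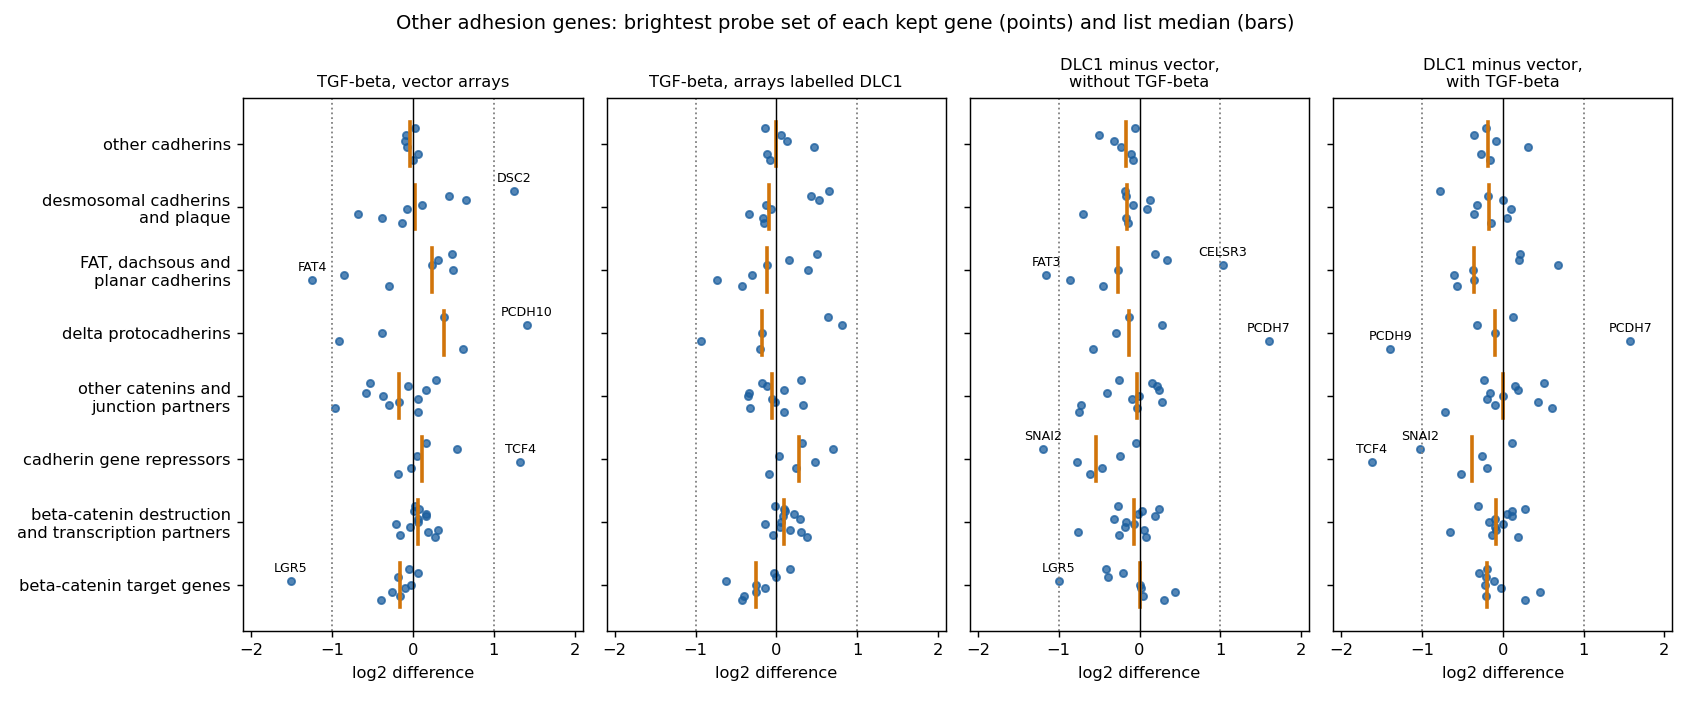
Log2 difference (horizontal axis) of the 65 kept genes of 8 adhesion lists (points, brightest probe set) in 4 comparisons of 1 array against 1 array, with list medians as bars and 2-fold as dotted lines. Genes past 2-fold are named, and for TGF-beta among DLC1-labelled arrays no list gene passes it.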

How the data were processed

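Messenger RNA of 4 cultures was measured on 1 array each. The authors deposited intensities on a linear scale, rounded to 2 decimals, from 0.05 to 265.58, and RMA is named per the submitters' processing notes, with no version. Their unit is unstated and taken as arbitrary. RMA equalises the arrays, which hides a shift common to most genes. Symbols came from the platform annotation (41097 with exactly 1 symbol, 1801 with several, 11777 not listed). The gene identifiers of 41043 matched the current RefSeq table, and no symbol changed. A gene is its probe set with the highest mean log2 value. The filter was 0.38, and differences are of log2 values. Arrays were grouped by their labels.

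Named were all members, up to 4 kept genes per list with the largest absolute difference, the 3 nearest profiles of members past 2-fold, and DLC1. Some genes are given for context, such as CDH5, CTNNA1 and cell type markers. The members and lists were chosen with earlier results of these data known. Alternatives were the mean of probe sets, centring on 14 housekeeping genes, cyclic loess, values raised to 0.38, 0.1 added before log2, no filter, and 1.5-fold. The computation was tested on simulated data. Python 3.11.15, numpy 2.4.6, pandas 2.3.3, R 4.3.3 and limma 3.58.1 were used.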

Additional observations from a re-analysis of the deposited data

Results flagged for a closer look

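CDH3 and DCHS1 moved in opposite directions with TGF-beta in the 2 kinds of cells, and the difference was not tested. CDH3 gave 0.066 in vector cells and -0.18 in DLC1-labelled cells, and DCHS1 gave 0.18 and -0.092. All 4 differences lie far within 2-fold, and the untreated and treated vector values of DCHS1 lie under the filter.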

How the results depend on the processing

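No paired analysis was possible because each group has 1 array and no result comes from a test. The counts of members past 2-fold in either direction stayed within 1.5 times of the reported ones under 6 of the 7 alternatives, but with the mean of probe sets the count that fell by DLC1 label went from 1 to 0 in both states. Without the filter the count with TGF-beta in vector cells became 2 and the interaction count 1, in both cases through CDH1, whose values all lie under 0.38. Of 200 single differences recomputed under the first 5 alternatives, 191 kept their side of 2-fold and none that had passed it changed sign, 8 dropped under 2-fold, 6 of CDH1 and 2 of CDH19, and 1 of CDH1 passed it. Many of the 200 were fixed in advance. The mean of probe sets cannot move CDH3 and JUP, with 1 probe set each. Raising values to 0.38 cannot move CDH3, CDH11, JUP and CTNNB1, and it sets every difference of CDH1 and CDH2 to 0. The difference of CDH19 by DLC1 label dropped under 2-fold with the mean of its probe sets, at -0.61 and -0.999, and its interaction, not past 2-fold, ran from -0.39 to 0.49. Low signal limits CDH1, CDH2 and the vector values of DCHS1.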

Other observations

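TCF4 was singled out after its values were seen. Of its 8 probe sets 7 reached the filter. All 7 rose with TGF-beta in vector cells, by 1.11 to 1.53, and none passed 2-fold in DLC1-labelled cells, at 0.08 to 0.55. All 7 fell by DLC1 label with TGF-beta, by between 1.11 and 1.71, while without it they gave -0.79 to -0.26. The probe sets share each array's RNA and are not replicates, and the interaction, at -1.38 to -0.72, has no test.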
